A study of Mus musculus with 8 samples.

Results

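Lilrb4a, Lilr4b, Pirb, Sirpa, Cd300a and Cd300lf encode paired immunoglobulin-like receptors that are best known from macrophages, monocytes, granulocytes and dendritic cells. These 6 genes, of 30142 with a transcript cluster carrying 1 gene symbol, were selected on the difference between Fbn1mgR/mgR and wild-type aorta together with their family membership. Their differences are therefore given as a description, without a test. Each member had exactly 1 such cluster, and all 6 lay above the median of the mean signals (4.01), the limit for the fit across clusters. Lilr4b is listed under its older symbol Gp49a.

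RNA came from the ascending aorta of male mice at 10 weeks of age, measured on 8 Affymetrix Clariom D mouse arrays. Homozygous Fbn1mgR/mgR mice (arrays mgR611, mgR612, mgR613 and mgR614) and wild-type mice (WT675, WT676, WT742 and WT744), 4 arrays each, were offspring of heterozygous parents on the C57BL/6J background. The mgR allele is hypomorphic and lowers the amount of fibrillin-1, a building block of microfibrils, in every tissue, and serves as a model of severe Marfan syndrome with aortic aneurysm. Nothing in the labels ties each array to a separate animal, so SDs, SEs and p-values cover only how these arrays vary, and part of that may be technical.

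Array medians were 3.95 to 4.07 on the log2 scale, and the number of arrays limits the precision. Smooth muscle markers were bright on every array, with a list mean of 13.2 to 14.3 in Fbn1mgR/mgR and 13.9 to 14.5 in wild-type aorta. Brown fat markers stood apart on mgR614 and WT676, with list means of 10.4 and 10.6 against 6.44 to 8.22 on the other arrays. The Fbn1 transcript was not analysed here, and no check of the genotypes by it was made. The part of brown fat in the members' differences was not tested, and values without both of these arrays are given beside the members' counts.

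Receptors of this kind carry immunoreceptor tyrosine-based inhibitory motifs (ITIMs) in their cytoplasmic tails. When a Src family kinase phosphorylates them, they recruit the phosphatases encoded by Ptpn6, Ptpn11 and Inpp5d, which dampen activating signals. Activating relatives with a similar outer part but a short tail instead pair with the adaptors Fcer1g or Tyrobp, which carry activating motifs (ITAMs) that engage the kinase Syk. The product of Lilr4b, gp49A, belongs to the family by its outer part but lacks ITIMs, so the label "inhibitory" does not describe it.

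Promoter sequences in RefSeq (GRCm38.p6) matched 4 of the 6 members, and the 250 bases before the start site are shown because these genes differed widely in response. Lilr4b lies at chr10:51480362-51480611 (plus strand), Pirb at chr7:3720383-3720632 (minus strand), Cd300a at chr11:114889791-114890040 (plus strand) and Cd300lf at chr11:115133993-115134242 (minus strand). Capitals mark matches on either strand to the PU box GAGGAA, a binding sequence of the myeloid factor PU.1, to its extension GAGGAAGT, which contains it, or to the C/EBP-type site TTGCNNAA.
Lilr4b: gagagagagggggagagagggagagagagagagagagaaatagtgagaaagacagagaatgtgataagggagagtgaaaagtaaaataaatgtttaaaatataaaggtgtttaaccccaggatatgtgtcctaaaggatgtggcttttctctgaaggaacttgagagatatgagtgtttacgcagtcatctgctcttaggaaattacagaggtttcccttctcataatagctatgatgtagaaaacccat
Pirb: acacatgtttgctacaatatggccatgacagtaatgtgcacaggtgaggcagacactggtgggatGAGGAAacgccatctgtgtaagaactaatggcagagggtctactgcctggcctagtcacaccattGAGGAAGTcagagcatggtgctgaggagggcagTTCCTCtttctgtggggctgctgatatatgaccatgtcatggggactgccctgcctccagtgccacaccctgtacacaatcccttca
Cd300a: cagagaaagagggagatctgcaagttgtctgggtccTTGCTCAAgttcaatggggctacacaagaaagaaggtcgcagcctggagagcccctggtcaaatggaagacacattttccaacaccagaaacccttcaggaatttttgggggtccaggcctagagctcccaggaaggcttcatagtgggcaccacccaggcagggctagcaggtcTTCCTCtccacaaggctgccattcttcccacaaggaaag
Cd300lf: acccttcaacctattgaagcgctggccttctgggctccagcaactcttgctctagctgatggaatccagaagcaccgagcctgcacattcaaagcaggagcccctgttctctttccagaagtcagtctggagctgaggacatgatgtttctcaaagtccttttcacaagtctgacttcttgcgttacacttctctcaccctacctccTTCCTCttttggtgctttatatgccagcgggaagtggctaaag

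Pirb held 3 PU boxes, with first bases 185, 120 and 87 bases before the start, and the box at 120 was the longer form. Cd300a held 1 PU box and 1 C/EBP-type site, Cd300lf held 1 PU box, and Lilr4b held none of the 3 motifs. Of 32851 promoter windows of this length, 23.3% held GAGGAA, 2.44% held GAGGAAGT and 9.56% held TTGCNNAA. With the 50 bases after the start included, Cd300lf held 1 longer PU box as well, as did 3.20% of all such windows. A match describes letters only and does not show that a factor binds there.

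The leukocyte immunoglobulin-like receptors were far higher in the mutant aorta. Lilrb4a, which encodes the ITIM receptor gp49B, had signals of 9.37, 9.68, 9.76 and 10.23 on mgR611, mgR612, mgR613 and mgR614. On WT675, WT676, WT742 and WT744 the Lilrb4a signals were 7.02, 7.24, 6.90 and 6.76 (all signals are log2). The genotypes were separated by a gap of 2.13, with mgR614 the highest array. The Lilrb4a mean was 9.76 ± 0.36 against 6.98 ± 0.20 (SD, n = 4 each), a log2 difference of 2.78 (SE 0.20) or 6.87-fold.

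Lilr4b, the neighbouring gene without ITIMs, followed nearly the same pattern. Its signals were 8.85, 9.17, 8.81 and 9.45 on the mutant arrays in the same order and 6.49, 6.56, 6.38 and 6.34 on the wild-type arrays. No mutant array came within 2.25 of a wild-type array. The Lilr4b mean was 9.07 ± 0.30 against 6.44 ± 0.10 (SD, n = 4 each), higher by 2.63 (SE 0.16) or 6.18-fold. Both genes are close copies of each other, so their probes may share signal and the split between them is uncertain.

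Pirb encodes a receptor with several ITIMs that binds class I histocompatibility molecules. Its signals were 7.95, 8.30, 7.76 and 8.42 on the mutant arrays and 5.93, 6.31, 6.24 and 6.22 on the wild-type arrays. Again the genotypes did not overlap, and mgR614 was the highest. The Pirb mean was 8.11 ± 0.31 against 6.17 ± 0.17 (SD, n = 4 each), a difference of 1.93 (SE 0.17) or 3.82-fold. Pirb has many near-identical activating copies, the Pira genes, and its signal may include theirs; 9 Pira genes on the list of relatives were not analysed here.

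Sirpa and Cd300a differed by less. Sirpa encodes the receptor for CD47, through which phagocytes are restrained from engulfing healthy cells, and is also made by neurons. Sirpa signals were 9.09, 9.88, 9.59 and 9.39 on the mutant arrays and 9.06, 8.98, 8.73 and 8.91 on the wild-type arrays. The lowest mutant array, mgR611, lay only 0.03 above the highest wild-type array, WT675. The Sirpa mean was 9.49 ± 0.33 against 8.92 ± 0.14 (SD, n = 4 each), higher by 0.57 (SE 0.18) or 1.48-fold.

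Cd300a encodes an ITIM receptor that binds phosphatidylserine and phosphatidylethanolamine, lipids exposed on dying cells. Its signals were 6.63, 7.11, 6.63 and 6.61 on the mutant arrays and 5.73, 6.06, 6.18 and 5.92 on the wild-type arrays. The genotypes were separated by 0.43, and mgR612 stood well above the other mutant arrays, which nearly coincided. The Cd300a mean was 6.75 ± 0.24 against 5.97 ± 0.19 (SD, n = 4 each), a difference of 0.77 (SE 0.16) or 1.71-fold, and 0.65 without mgR612.

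Cd300lf, an ITIM receptor for ceramide and related lipids, did not separate the genotypes. Its signals were 4.72, 4.36, 4.17 and 4.57 on the mutant arrays and 4.38, 4.24, 4.58 and 4.12 on the wild-type arrays. The mean was 4.46 ± 0.24 against 4.33 ± 0.20 (SD, n = 4 each), a difference of 0.125 (SE 0.16). These signals were dim, since the 95th percentile of 1225 olfactory receptor genes, which the aorta is not known to use broadly, was 4.11. The wild-type and mutant ranges of Cd300lf overlapped, and a small difference could not be resolved with this SE.

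**Figure D1:**
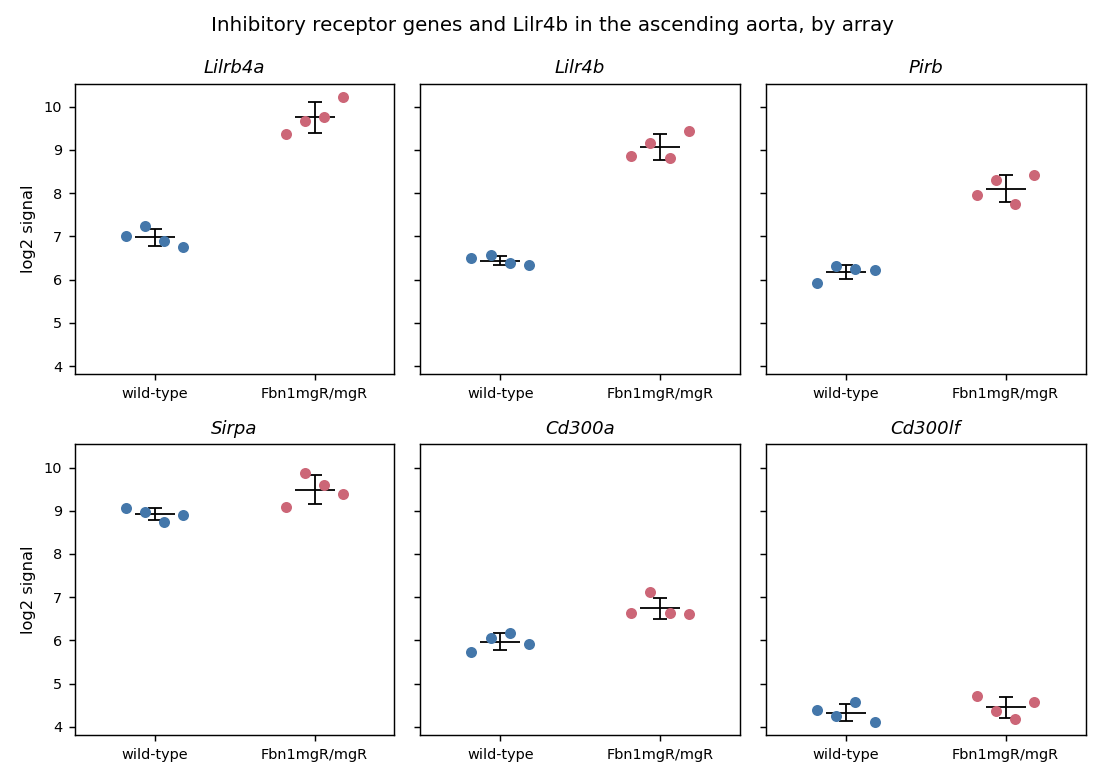
Log2 signal of each member on the 4 wild-type (blue) and 4 Fbn1mgR/mgR (red) arrays, left to right in the order WT675, WT676, WT742, WT744 and mgR611 to mgR614; black bars are the mean ± SD. Lilrb4a, Lilr4b and Pirb are separated by gaps of 2.13, 2.25 and 1.45, Sirpa by 0.03 and Cd300a by 0.43, while Cd300lf overlaps; levels of different genes are not comparable.

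Of the 6 members, 5 had every mutant array above every wild-type array, against 5.26% of the 32957 clusters tested. In the limma fit over those clusters (Benjamini-Hochberg adjusted p under 0.05), Lilrb4a, Lilr4b, Pirb and Cd300a were called higher and none was called lower, against 1.40% and 0.464% of all tested clusters. Since this contrast chose the members, nothing is read from these counts. The median difference of the 6 members was 1.35, beside -0.02 over all tested clusters. Cd300a was not called without any 1 of the 8 arrays (mgR611, mgR612, mgR613, mgR614, WT675, WT676, WT742 or WT744), which left 3 called members in each case. The same held with no filter, with median centring and with a brown fat covariate. Without mgR614 and WT676, the arrays highest in brown fat markers, the differences were 2.71 for Lilrb4a, 2.54 for Lilr4b, 1.87 for Pirb, 0.62 for Sirpa, 0.85 for Cd300a and 0.06 for Cd300lf.

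Among the mutant arrays the members did not share 1 order. The highest array was mgR614 for Lilrb4a, Lilr4b and Pirb, mgR612 for Sirpa and Cd300a, and mgR611 for Cd300lf. With each gene's mean over the 8 arrays set to 0, the root mean square difference between the profiles of Lilrb4a and Lilr4b was 0.17, the smallest of the 15 pairs of members. Sirpa and Cd300a came next at 0.26, then Lilr4b and Pirb at 0.37. The pair farthest apart was Lilrb4a and Cd300lf, at 1.37. These profiles keep the genotype difference, so that distance mostly restates the unlike differences of the pair (2.78 and 0.125). Those came from the contrast that chose the members.

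Macrophage markers were higher in the same samples. Of 17 such genes, 13 passed the limma threshold as higher and none as lower (0 were lower at an unadjusted p under 0.05), with a median difference of 1.75. Their list mean was 8.48 to 8.92 on the mutant and 6.86 to 7.13 on the wild-type arrays, and the log2 of their summed signal was 13.7 to 14.4 and 12.0 to 12.4. Adgre1, which encodes the macrophage marker F4/80, rose by 1.66 (adjusted p = 0.00993) and Ccr2, the receptor of monocyte chemokines, by 3.50 (adjusted p = 0.00261). Without both mgR614 and WT676, Adgre1 did not pass (adjusted p = 0.0966). The single markers differed by 0.52 (Mertk, not called) to 3.50 (Ccr2). In a piece of tissue, more cells of a type and more RNA per cell cannot be told apart.

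Relative to the macrophage marker mean of the same array, the members went in both directions. By this measure Lilrb4a was higher in the mutant aorta by 1.11 (SE 0.20) and Lilr4b by 0.95 (SE 0.14), with no overlap between the genotypes. Pirb differed by 0.26 (SE 0.14), and its genotypes overlapped. Sirpa, Cd300a and Cd300lf were lower relative to the macrophage mean, with differences of -1.10 (SE 0.12), -0.90 (SE 0.14) and -1.55 (SE 0.24), and again no overlap. Each value is the member's own difference minus that of the marker mean (1.67), so for the dim Cd300lf it mostly restates the rise of the markers. The values for Lilrb4a, Lilr4b, Pirb, Sirpa and Cd300a all lie within the spread of the single markers around their mean. Those markers differed by 0.52 (Mertk) to 3.50 (Ccr2), and of them only Ccr2 lay above Lilrb4a and Lilr4b. All come from the contrast that chose the members and are a description.

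**Figure D2:**
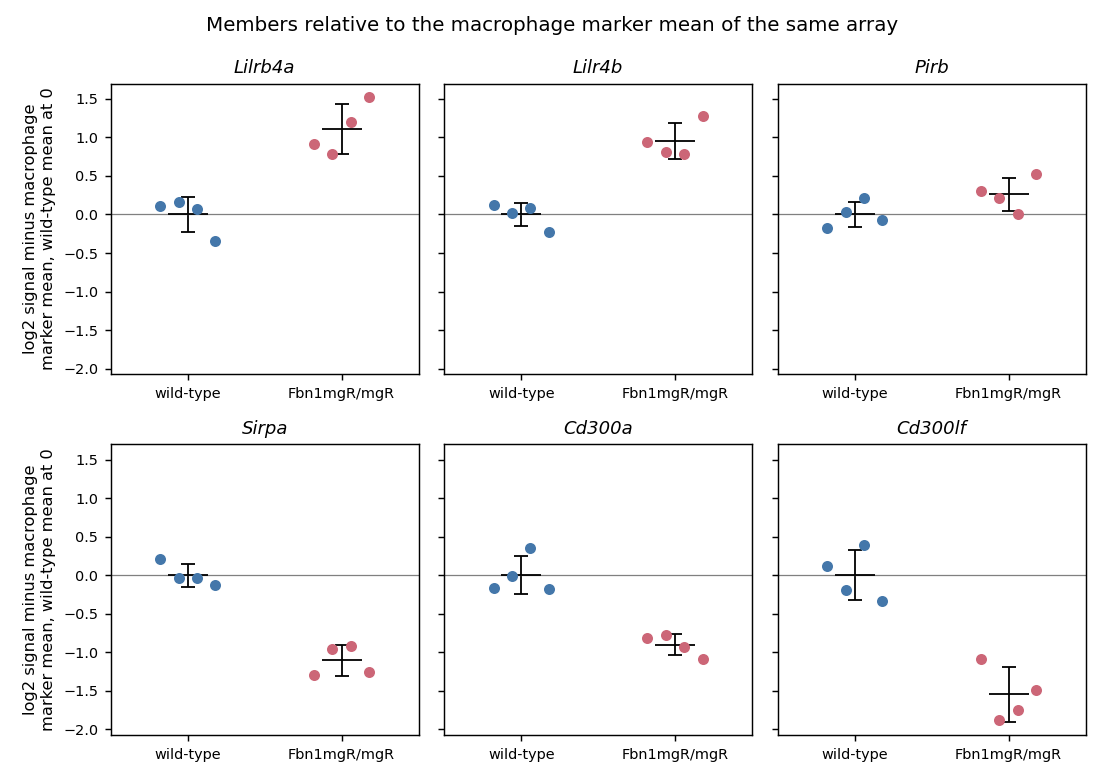
Log2 signal of each member minus the mean of the 17 macrophage markers on the same array, with the wild-type mean of each gene set to 0; points are arrays (blue wild-type, red Fbn1mgR/mgR, in array order) and black bars are the mean ± SD. Lilrb4a and Lilr4b lie above 0 by 1.11 and 0.95 in the mutant, Pirb by 0.26 with overlap, and Sirpa, Cd300a and Cd300lf lie below 0.

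Markers of other cell types gave few calls outside the dendritic cell list. Of 8 dendritic cell markers tested, 5 lay above 0 and 3 below, with a median difference of 0.43. Calls as higher numbered 4 (Clec9a, Cd209a, Batf3 and Irf8). Those below 0 were Zbtb46 (-0.085), Siglech (-0.185) and Ccr9 (-0.0875), and none of them passed. The list mean was 5.43 to 5.75 on the mutant and 4.87 to 4.95 on the wild-type arrays. Without both mgR614 and WT676, Cd209a (adjusted p = 0.0664) and Batf3 (0.0756) did not pass. None of 10 neutrophil markers passed limma (0 at an unadjusted p under 0.05), with list means of 4.19 to 5.56 and 4.16 to 5.05 on the mutant and wild-type arrays. All 10 had a difference above 0. Of these, Ngp and Camp had wild-type means of 3.50 and 3.89, under the filter limit of 4.01. They passed it through their mutant arrays, so nothing is read from their sign. The spread was wide, and Ngp, a granule gene, reached 7.36 on mgR613 and lay at 3.46 to 3.53 on the wild-type arrays. S100a8 ran from 3.97 to 8.15 on the mutant and from 4.14 to 8.14 on the wild-type arrays. The granule genes Mpo and Elane, with differences of 0.055 and -0.035, were too dim to be tested. None of 7 mast cell markers passed (1 was higher at an unadjusted p under 0.05), with list means of 5.57 to 6.75 against 5.46 to 6.15. That 1 was Fcer1a, with a wild-type mean of 3.76, under the filter limit of 4.01. It passed the filter through its mutant arrays, so nothing is read from it. Of 6 B cell markers, all had a difference above 0 and none passed (2 were higher at an unadjusted p under 0.05). In wild-type aorta 4 of these 6 were no brighter than the olfactory receptor limit of 4.11. Ms4a1, Pax5 and Fcer2a lay under the filter limit of 4.01 there and passed it through their mutant arrays, so nothing is read from their sign. Of 8 T and NK cell markers, 4 lay above 0 and 4 below with none passing (2 were higher unadjusted). Of 7 endothelial markers, 6 lay below 0 with a median of -0.79, and none passed (3 were lower at an unadjusted p under 0.05). Of 7 smooth muscle markers, 5 lay below 0 and 2 above with a median of -0.395, and none passed (1 was lower unadjusted). Of 6 fibroblast markers, 3 lay above 0 and 3 below, and 1 was called higher. This was Col1a1, with a difference of 0.98 (adjusted p = 0.00993). The part of these cell types in the members' differences was not tested.

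The genes nearest in pattern were found as the smallest root mean square difference from each centred member profile over the 8 arrays, among 12256 named genes. The profiles keep the genotype difference, so a near gene is in large part one with a similar difference between the genotypes. For Lilrb4a they were Bcl2a1d, a survival factor of the BCL2 family (0.24), Ctss, the protease cathepsin S (0.27), and Tyrobp (0.30). For Lilr4b they were C3ar1, a complement receptor (0.23), Fcgr2b, the inhibitory Fc receptor (0.24), and Ctss (0.28). Those of Pirb were the integrin gene Itgam (0.13), the tetraspanin gene Cd53 (0.14) and the lectin receptor gene Clec9a (0.15). For Sirpa they were Ftl1, a ferritin light chain (0.06), Slc25a45 (0.06) and Lsp1 (0.08). Those of Cd300a were the transcription factor gene Batf3 (0.13), Rab31 (0.13) and the tumour necrosis factor receptor gene Tnfrsf1b (0.13). The neighbours of Cd300lf, Rps23rg1, Defb46 and Pvalb (0.08 each), had differences of 0.14, 0.09 and 0.12, so a nearly flat profile was matched by other nearly flat ones.

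Related genes were compared by lists of relatives, effectors and ligands, tested with limma over the 32957 clusters above the median signal with Benjamini-Hochberg adjustment. Of 35 listed activating relatives, 17 were not analysed here and 6 were too dim to be tested. Besides the Pira genes, those not analysed were Sirpb1a, Sirpb1b, Sirpb1c, Cd300c2, Cd300ld2, Cd300ld3, Cd300ld4 and Cd300ld5, relatives of Sirpa and the Cd300 members. Of the 12 tested, 5 were higher and none lower (0 lower at an unadjusted p under 0.05), with a median difference of 0.74. The low-affinity activating Fc receptor gene Fcgr3 rose by 2.13 (SE 0.17, adjusted p = 0.00132), with signals of 10.85 to 11.38 on the mutant against 8.74 to 9.31 on the wild-type arrays. The high-affinity receptor gene Fcgr1 rose by 2.11 (adjusted p = 0.00775) and Fcgr4 by 2.24 (adjusted p = 0.0146). Cd300ld, an activating relative of Cd300a, rose by 1.43 (SE 0.18, adjusted p = 0.00729). The fifth was Trem2, a lipid receptor that pairs with Tyrobp, at 0.86 (adjusted p = 0.0184), named after its value was seen. Leaving out mgR613 or WT675 ended the call of Fcgr4 (adjusted p of 0.0513 and 0.0529), and Trem2 missed the threshold without mgR614, WT675 or WT744 (0.0519 to 0.0588). The list had 3 higher without WT675. Without both mgR614 and WT676 only Fcgr3 of this list was called (adjusted p = 0.0214).

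Within the Cd300 family, which lies mostly in 1 cluster on chromosome 11, the differences were uneven. Cd300a and Cd300ld differed by 0.77 and 1.43. Cd300c (0.22, adjusted p = 0.414), Cd300e (0.13, adjusted p = 0.618) and Cd300lg, an endothelial relative (0.24, adjusted p = 0.806), did not pass limma. Cd300lb, the coding gene next to Cd300a, was too dim to be tested, with means of 4.26 ± 0.21 in Fbn1mgR/mgR and 3.57 ± 0.07 in wild-type aorta (SD, n = 4 each) and no overlap. The coding genes beside the Lilr4b and Lilrb4a pair on chromosome 10, Sim1 and Fam162b, differed by -0.01 and 0.01. Family members resemble each other in sequence, and shared probe signal makes single values uncertain.

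The list of other inhibitory receptors, not all immunoglobulin-like (Cd5 is included), had 5 of 15 tested members higher and none lower. At an unadjusted p under 0.05, 1 (Pecam1) was lower, and the median difference was 0.59. Fcgr2b, the inhibitory receptor for antibody complexes, rose by 2.42 (SE 0.14, adjusted p = 0.000791), from 6.53 to 6.90 on the wild-type arrays to 8.83 to 9.27 on the mutant arrays. Lair1, a collagen receptor with ITIMs, rose by 1.30 (SE 0.15, adjusted p = 0.00603). Pilra rose by 1.85 (adjusted p = 0.0149) and Vsig4, a complement receptor of resident macrophages, by 2.54 (adjusted p = 0.0253). Cd200r1, whose ligand is CD200, was the fifth at 1.21 (adjusted p = 0.0300), named after its value was seen. In wild-type aorta its mean, 4.09, was no brighter than the olfactory receptor limit of 4.11. Pilra missed the threshold without WT675 (adjusted p = 0.0562) or WT744 (0.0546). Vsig4 missed it without mgR613, WT675, WT676, WT742 or WT744, at 0.0673 to 0.0812. Cd200r1 missed the threshold without any 1 array except mgR611, at 0.0716 to 0.0909. The list had 3 higher without mgR613, WT676 or WT742, and 2 without WT675 or WT744 or without both mgR614 and WT676.

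The list of inhibitory effectors had 4 of 9 members higher and none lower (0 lower at an unadjusted p under 0.05), with a median of 0.56. Besides the phosphatases that ITIMs recruit, the list holds Inppl1, Dok1, Dok2, Dok3, Csk and Skap2. Ptpn6, the ITIM phosphatase of blood cells, rose by 1.04 (SE 0.13, adjusted p = 0.00605), with 6.75, 7.20, 6.92 and 7.11 on the mutant and 6.05, 5.96, 5.81 and 6.00 on the wild-type arrays. Its widely expressed relative Ptpn11 differed by 0.02 (adjusted p = 0.970). Inpp5d, the lipid phosphatase of blood cells, rose by 0.84 (adjusted p = 0.0311) and its relative Inppl1 differed by -0.07 (adjusted p = 0.918). The adaptors Dok3 and Dok2 rose by 0.56 (adjusted p = 0.0220) and 0.70 (adjusted p = 0.0320). The call of Ptpn6 was kept without any 1 array, but not without both mgR614 and WT676 (adjusted p = 0.0668), when no effector was called. Inpp5d and Dok2 did not pass with no filter (adjusted p = 0.0533 and 0.0572). Without 1 array, Dok3 missed the threshold in 6 of 8 cases, Inpp5d in 6 and Dok2 in 7. The list had 2 higher without mgR611, mgR613 or mgR614, and 1 without mgR612, WT675, WT676 or WT742.

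Of 5 Src family kinases, which phosphorylate the motifs, Fgr rose by 0.72 (SE 0.12, adjusted p = 0.0236) and none was lower (0 at an unadjusted p under 0.05). Src (-0.04), Fyn (0.16), Yes1 (-0.04) and Blk (0.20) did not pass. Fgr missed the threshold without mgR611, mgR612, WT675, WT676, WT742 or WT744, with adjusted p of 0.0513 to 0.0751, or without both mgR614 and WT676 (0.126).

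The ITAM adaptors and Syk pathway had 4 of 11 tested members higher and none lower (0 at an unadjusted p under 0.05), with a median of 0.76. Tyrobp, the adaptor of many activating relatives, rose by 2.94 (SE 0.28, adjusted p = 0.00261), with 12.18, 13.51, 13.24 and 13.46 on the mutant and 10.23, 10.31, 9.89 and 10.22 on the wild-type arrays. Fcer1g, the adaptor of Fc receptors and Pira proteins, rose by 2.19 (SE 0.23, adjusted p = 0.00338). Blnk and Lat2, scaffolds downstream of Syk, rose by 1.46 (adjusted p = 0.0117) and 0.76 (adjusted p = 0.0368). Syk itself differed by 0.44 (adjusted p = 0.187). Lat2 missed the threshold without mgR611, mgR612, mgR614, WT675, WT676 or WT744, with adjusted p of 0.0777 to 0.117, with no filter (0.0607) and with the brown fat covariate (0.0579). Without both mgR614 and WT676, Tyrobp (adjusted p = 0.0365) and Fcer1g (0.0369) were called.

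Of 8 tested genes for ligands, 1 was higher and none lower (0 lower at an unadjusted p under 0.05), with a median of 0.42. Fn1, which encodes fibronectin, a reported ligand of the Lilrb4a product, rose by 1.98 (SE 0.28, adjusted p = 0.0117), with 16.03, 15.89, 15.76 and 15.35 on the mutant and 13.05, 13.55, 14.38 and 14.12 on the wild-type arrays. Without both mgR614 and WT676 the Fn1 difference was 2.04 (adjusted p = 0.0756). Cd47, the ligand of the Sirpa product, differed by 0.27 (SE 0.18, adjusted p = 0.591), and its genotypes overlapped. For the class I molecules that Pirb binds, B2m differed by 0.65 (adjusted p = 0.0832), H2-D1 by 0.38 (0.492) and H2-K1 by 0.47 (0.523). B2m was already very bright in wild-type aorta (mean 17.7), and it passed without mgR611 (0.79, adjusted p = 0.0197). Rtn4, which encodes the Pirb ligand Nogo, differed by 0.67 (adjusted p = 0.100).

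**Figure D3:**
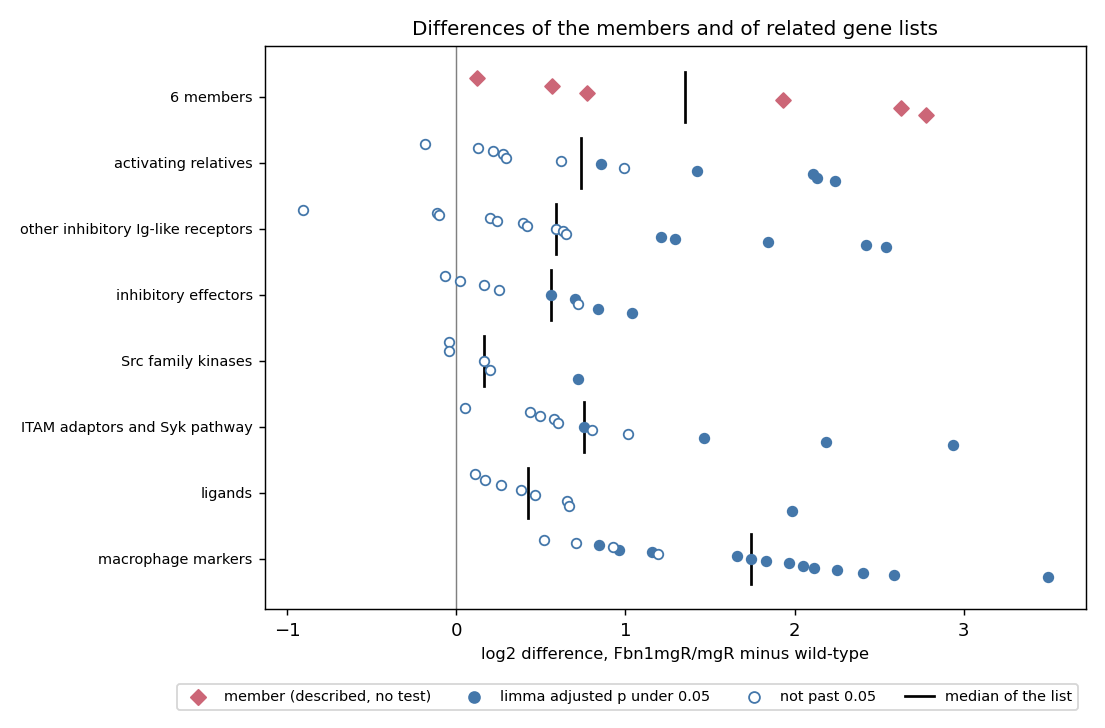
Log2 differences (Fbn1mgR/mgR minus wild-type) of the 6 members (red diamonds, described without a test) and of the tested genes of 6 related lists and the macrophage markers (circles, filled where the limma adjusted p is under 0.05); vertical bars are list medians. The members spread from 0.125 to 2.78 around a median of 1.35, beside medians of 0.74 for activating relatives, 0.59 for other inhibitory receptors and 1.75 for macrophage markers.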

How the data were processed

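Arrays were grouped by the genotype label. The authors deposited 1 normalized log2 signal for every transcript cluster and array. According to the submitters' processing notes the Transcriptome Analysis Console was used; no version is named, and how signals were normalized and probes summarised is not given in the sources used here. Of 65956 clusters, 30604 carried 1 symbol, 2146 several and 33206 none; symbols were updated through gene IDs to RefSeq (GRCm38.p6; 22818 IDs matched, 827 symbols changed). The brightest cluster stood for a gene.

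The 32957 clusters with a mean signal over the median were fitted with limma 3.58.1 in R 4.3.3 (eBayes with an intensity trend), with Benjamini-Hochberg adjustment and a threshold of 0.05. Adjusted p-values come from this fit, except where an array left out or another setting is named, when they come from the refit with that change. On simulated data with changes placed in brighter clusters, 63% of log2 changes of 1 and 82% of changes of 2 were recovered, and 6.45% of calls were false. A gene that did not pass may therefore still differ. SEs of members come from the SDs of both genotypes, and those of other genes from limma. The members and lists were chosen with earlier results of these data known, so their directions are not independent evidence. Named genes are the members, up to 4 genes with the smallest p per related list, and the 3 genes nearest in pattern to each member. Other genes of the lists named in the text (cell type markers, Cd300 relatives, and paralogs, kinases and ligands that background knowledge ties to the receptors) fall outside this rule and were chosen after their values were seen. Alternatives were array weights, robust eBayes, no intensity trend, other filters, quantile normalization, median centring, a brown fat covariate and each array left out. After seeing the data, a variance prior from all clusters and a fit without mgR614 and WT676 were added. Python 3.11.15 and pandas 2.3.3 were used for tables and matplotlib 3.10.9 for figures.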

Additional observations from a re-analysis of the deposited data

Results flagged for a closer look

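Among 60 groups of 4 arrays (the members and the named genes of the related lists, in each genotype), 1 held an array far from the others, where chance gives about 1 in 20 groups. In the Fbn1mgR/mgR arrays, Cd300a was 7.11 on mgR612 and 6.61 to 6.63 on the other arrays, and this gap was 0.96 of the whole range. The macrophage marker mean was also highest on mgR612 among the mutant arrays, and a link between them was not tested.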

How the results depend on the processing

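No paired analysis was possible because the genotypes share 0 replicate numbers. The median difference of the members, 1.35, was 1.26 to 1.43 over all alternatives that kept the 6 members; the upper quartile filter dropped Cd300lf. Over the alternatives the members' own differences kept their sign, with ranges of 2.62 to 2.91 for Lilrb4a, 2.50 to 2.71 for Lilr4b, 1.83 to 2.05 for Pirb, 0.44 to 0.70 for Sirpa, 0.65 to 0.85 for Cd300a and 0.04 to 0.22 for Cd300lf. Each had 1 cluster, so averaging clusters changed nothing. Members called numbered 3 or 4. Called clusters numbered 209 to 441 higher and 56 to 121 lower with 1 array left out, against 460 and 153, and 99 lower with no filter. The higher count moved by over 1.5 times without mgR613 (248), mgR614 (257), WT675 (209), WT676 (244), WT742 (251) or WT744 (222), and the lower count without mgR611 (86), mgR613 (73), mgR614 (84), WT675 (68) or WT744 (56). With 1 array left out, calls numbered 3 to 6 among activating relatives, 2 to 5 among other inhibitory receptors, 1 to 3 among inhibitory effectors, 0 to 1 among Src family kinases, 1 to 2 among ligands and 3 to 4 in the ITAM list. With the upper quartile filter, 3 activating relatives and 0 Src family kinases were called, since dim genes were not tested. With no filter 2 effectors were called, over more tests, and with quantile normalization 2 ligands. Without mgR614 and WT676, 115 clusters were higher and 53 lower, with 1 activating relative, 2 other inhibitory receptors, 0 effectors, 0 Src family kinases, 2 ITAM genes and 0 ligands called; 3 arrays per genotype remained. Without mgR613, Fyn was at -0.02 and Src at 0.01, turning sign; with other arrays left out they reached 0.29 and -0.083. Neither passed, and the cause was not tested. Variance prior, trend and robustness settings moved no count by over 1.5 times.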
